A study of Mus musculus with 6 samples.

Results

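Arterial and venous identity was examined through 9 genes. Nr2f2, Nr2f1 and Ephb4 were taken as venous, and Efnb2, Gja4, Gja5, Cxcr4, Unc5b and Hey2 as arterial. Each differentially methylated region (DMR) of lung endothelial cells (EC) whose midpoint lay in the RefSeq gene body of a member, or within 50 kb of it, was assigned to that gene. This gave 44 of the 18,333 listed DMRs, at 8 of the 9 genes. Hey2 had none.

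The DMRs came from bisulfite sequencing of whole genomes after tagmentation (T-WGBS), a method for small DNA inputs in which unmethylated cytosines are read as T. Per the labels, 3 infant and 3 young adult C57BL/6N samples of lung EC were compared. The study's methods give infant mice as 8 to 10 days and young adults as 8 to 12 weeks old, and describe the mice as female. The sources used here give no genetic change or treatment for either group. In both groups the cells were depleted of PDPN, LYVE1, PTPRC and LY76 positive cells and sorted as CD31+CD34+. The gate does not separate arterial, venous and capillary EC, so each value is an average over all of them, and a change in the share of a vessel type cannot be told apart from a change of methylation within its cells. Markers of the sorted cells cannot be read as levels from a list of changed regions.

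The file used here gives only the mean methylation of each group for a DMR, averaged by the authors over its CpGs and the 3 samples of the group. It holds no value per sample, no SD and no depth per DMR, so replicate error is unknown for every difference below and none was tested again here. Every DMR had already passed the authors' filter on the same samples, which required at least 3 consecutive CpGs, each under 0.05 in a t-test, and group means at least 10% apart. The sizes below are therefore those of selected regions, differences are young adult minus infant in percentage points, and a CpG outside a DMR may have been unchanged, too variable or too thinly covered.

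Arteries and veins carry different molecular programs before they differ in wall structure. In arterial EC, Notch signaling induces the transmembrane ligand ephrin-B2, encoded by Efnb2, and the transcriptional repressor Hey2. In venous EC, the orphan nuclear receptor COUP-TFII, encoded by Nr2f2, restrains Notch signaling, and the ephrin-B2 receptor EphB4 is enriched. Methylation of CpGs in introns and at enhancers differs between cell types and stages, and methylation within CpG islands, stretches rich in CpGs, is usually low.

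The sequences of the DMRs that carry most of what follows are shown on the plus strand of GRCm38.p6 (mm10), with every CpG in capitals. The first set lies in the coding exons of Nr2f2, where gains were grouped. The first, chr7:70357814-70358017, holds 14 CpGs and gave the longest DMR of these genes by CpG number, the next is its neighbor at chr7:70358080-70358155 with 8 CpGs, and the last, chr7:70354712-70354787, had the largest gain of all 44 DMRs.
Nr2f2 exon 2: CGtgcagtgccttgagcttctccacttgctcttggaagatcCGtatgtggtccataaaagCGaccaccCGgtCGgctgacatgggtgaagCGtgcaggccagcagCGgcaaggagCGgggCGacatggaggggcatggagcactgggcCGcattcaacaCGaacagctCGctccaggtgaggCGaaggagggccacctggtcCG
Nr2f2 exon 2, neighbor: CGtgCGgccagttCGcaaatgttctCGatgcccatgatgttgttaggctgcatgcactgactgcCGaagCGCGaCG
Nr2f2 exon 3: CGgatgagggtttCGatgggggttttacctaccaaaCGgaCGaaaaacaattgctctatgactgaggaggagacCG

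The second set is from Efnb2, the gene with the most DMRs. They are the largest intron 1 loss at chr8:8642299-8642486 and the loss in the last exon at chr8:8620638-8620685, where 5 CpGs lie within 48 bp.
Efnb2 intron 1: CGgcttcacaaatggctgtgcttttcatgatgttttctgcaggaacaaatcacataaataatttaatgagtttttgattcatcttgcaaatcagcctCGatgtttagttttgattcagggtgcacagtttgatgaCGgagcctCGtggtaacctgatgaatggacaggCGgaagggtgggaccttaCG
Efnb2 last exon: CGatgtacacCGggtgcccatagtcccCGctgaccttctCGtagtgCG

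The remaining sequences show the single body DMR of Ephb4 (chr5:137366733-137366765), the larger of the Gja4 losses (chr4:127307434-127307485), and the largest loss (chr10:60794885-60795007) and gain (chr10:60824030-60824094) in intron 1 of Unc5b, the one gene with both directions in its body.
Ephb4 exon 12: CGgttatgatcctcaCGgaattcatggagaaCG
Gja4, downstream: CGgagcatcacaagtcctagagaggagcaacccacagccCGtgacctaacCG
Unc5b intron 1, loss: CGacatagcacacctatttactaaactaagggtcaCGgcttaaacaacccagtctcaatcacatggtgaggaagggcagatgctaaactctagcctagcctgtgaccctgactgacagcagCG
Unc5b intron 1, gain: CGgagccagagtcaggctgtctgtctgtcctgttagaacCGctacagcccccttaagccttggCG

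Across the 9 genes, 22 DMRs lost and 22 gained methylation from infant to young adult. Of all listed DMRs, 45.9% were losses and 54.1% gains. The even split of the 44 rested on one gene. Efnb2 contributed 17 of the 22 losses, and without it the other genes had 5 losses and 19 gains.

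Venous members had 12 DMRs, of which 11 were gains and 1 was a loss. Arterial members had 32, with 21 losses and 11 gains, and arterial members other than Efnb2 had 4 losses and 8 gains. A difference in direction between venous and arterial members thus came from Efnb2 on one side and Nr2f2, with 8 gains, on the other. DMRs of one gene are neighbors in the same samples and are not independent of each other.

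**Figure D1:**
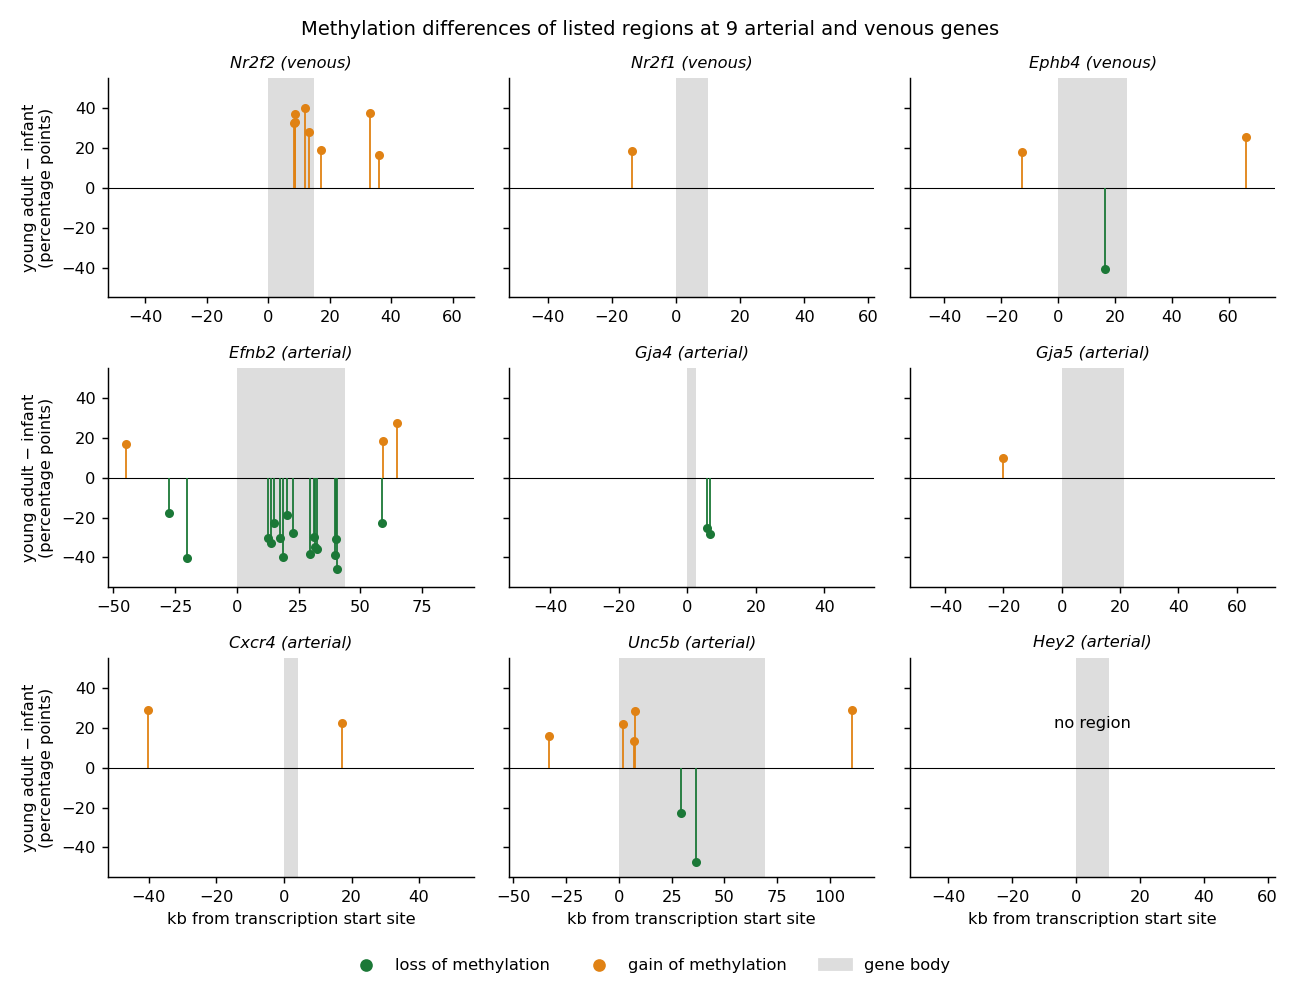
Each panel is one gene. The x axis gives the distance of a DMR from the outermost transcription start site in kb, along the direction of transcription, and the y axis the young adult minus infant difference of the group means in percentage points. Grey marks the gene body. The 14 DMRs in the body of Efnb2 are all losses, the 5 in the body of Nr2f2 are all gains, and Hey2 has none.

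The plot of differences along the loci also shows how direction varied with position. Of the 25 DMRs in the body of a member, 17 were losses and 8 gains, and 57.5% of all listed DMRs in gene bodies were losses. The 17 losses belonged to Efnb2 (14), Unc5b (2) and Ephb4 (1), and the 8 gains to Nr2f2 (5) and Unc5b (3). Of the 19 DMRs in the flanks, 5 were losses and 14 gains. Among these, 12 lay in no gene and 9 of the 12 (75%) were gains, near the 76.9% of all listed DMRs in no gene body. The other 7 lay in the body of another gene and 5 of them (71.4%) were gains, beside 42.5% of all listed DMRs in gene bodies.

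The size of the gains was 24.0 points in the median (all listed gains 20.4), from an infant median of 42.4% to 69.8% in young adults (all listed gains 54.8% and 78.1%). Losses had a median of -30.6 points (all listed losses -32.5), from 70.0% to 34.0%. The medians of all listed losses were 61.5% and 25.4%. Without Efnb2, the 5 losses of the other members had medians of 62.5% in infants and 30.6% in young adults, so the higher infant level came with Efnb2. In 3 of the 44 DMRs (6.82%) the young adult mean was under 20%, and in 9 (20.5%) it was over 80%, beside 18.1% and 25.1% of all listed DMRs.

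**Figure D2:**
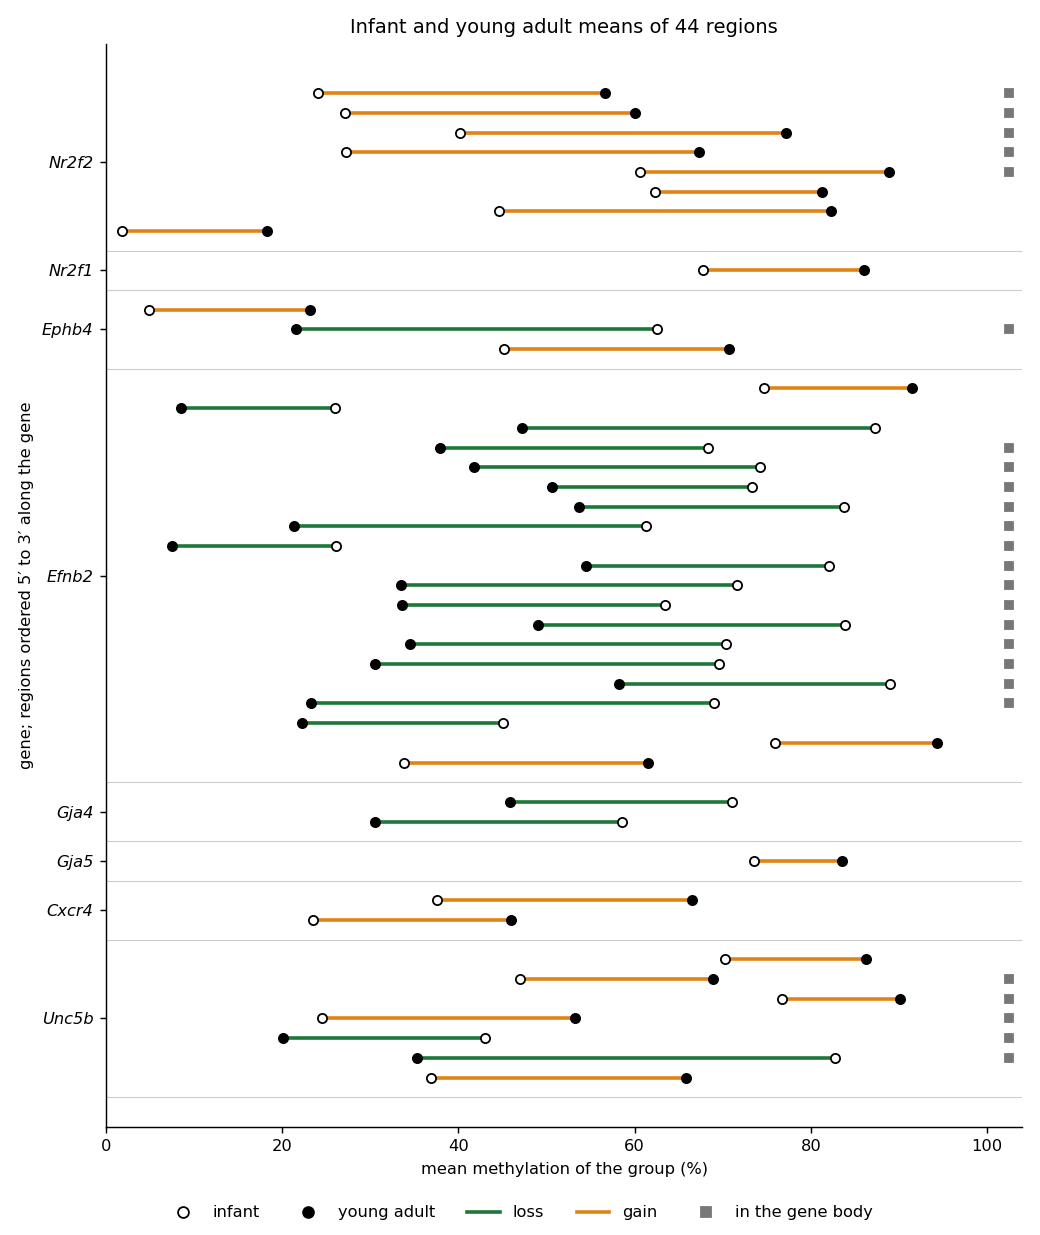
Each line is one of the 44 DMRs, grouped by gene and ordered along the direction of transcription. Open circles are infant and filled circles young adult group means in percent, each the authors' mean of 3 samples, and squares mark DMRs in the gene body. Of the 14 lines in the body of Efnb2, 13 begin above 60% in infants and end lower, and the 8 Nr2f2 lines run the other way.

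A DMR in the body or within 50 kb is common. Of 26,182 RefSeq genes, 49.7% had at least 1, 24% had at least 1 loss and 38.1% at least 1 gain, beside 8, 4 and 7 of the 9 members. With the body alone, 17.6% of genes had a DMR, 8.46% a loss and 11.4% a gain, beside 4, 3 and 2 members. The median gene body was 13.5 kb over all genes and 14.8 kb over the members.

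Nr2f2 is the venous fate regulator among the members. Its gene body (chr7:70351950-70366746, minus strand) spans 14.8 kb and 452 CpGs, of which 34 (7.52%) lay in DMRs. Among 12,067 genes with at least 200 CpGs in the body, 100 (0.829%) had as large a share. All 8 DMRs of Nr2f2 were gains, 5 of them in the body, and 188 of all genes (0.718%) had at least 5 gains in the body.

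Of these, 3 gains formed one group in coding exon 2. They covered 0.416 kb from chr7:70357814 to chr7:70358229 and held 26 CpGs. In the 14-CpG DMR the infant mean was 40.1% and the young adult mean 77.1% (37.0 points). Its neighbor with 8 CpGs was at 27.2% in infants and 60.1% in young adults (32.9 points). The last, at chr7:70358173-70358229 with 4 CpGs, was at 24.0% and 56.6% (32.6 points). In these 3 DMRs infant means were intermediate and the gains differed by a few points. Of all listed DMRs, 79 (0.431%) held 14 CpGs or more. The DNA fragment that the study examined by mass spectrometry at this gene covered all 204 bp of the first DMR and 55 bp of the second; those measurements were not used here.

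The remaining 2 gains of the body were in the last exon. The coding part held the gain from 27.2% to 67.3% (40.04 points), and 97 of the 9911 listed gains (0.979%) were as large. The DMR in the 3′ UTR (chr7:70353369-70353405) had means of 60.5% and 88.9% (28.3 points). Exon 2 and exon 3 encode most of the ligand-binding part of the receptor and are shared by both curated transcripts, which differ in their first exon and start 6.15 kb apart. The DMR nearest to a start site was 2.39 kb from the downstream one.

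A further 3 gains lay downstream of Nr2f2. The largest, at chr7:70333534-70333603 in the non-coding gene Gm29683, went from 44.6% to 82.3% (37.7 points). A second DMR in Gm29683 (chr7:70330808-70330835) was almost unmethylated in infants at 1.84% and reached 18.2% (16.4 points). The one between the genes (chr7:70349353-70349471) had means of 62.3% and 81.3% (19.0 points). The next listed DMR was 299.66 kb from the gene body, so no other DMR was listed within that distance. Of all genes, 91 (0.348%) had at least 8 gains in this window and no loss.

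Nr2f1, which encodes the related receptor COUP-TFI, had a single gain. It lay 13.55 kb upstream of the gene in the long non-coding RNA gene A830082K12Rik (chr13:78212386-78212466), with means of 67.7% in infants and 86.1% in young adults (18.3 points). No DMR lay in its body, which holds 262 CpGs. The grouped exon gains of Nr2f2 therefore had no counterpart in the list at Nr2f1.

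Ephb4, the venous receptor for ephrin-B2, had DMRs of both directions. In its body, the DMR in coding exon 12 of 17 went from 62.5% in infants to 21.6% in young adults (-40.9 points), the one loss of a venous member. The 2 gains lay outside, one 12.68 kb upstream at chr5:137337416-137337443 with low means of 4.93% and 23.2% (18.3 points). The other was 41.75 kb downstream in Zan (chr5:137416193-137416352), which encodes a sperm protein, with means of 45.2% and 70.7% (25.5 points).

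Efnb2 encodes the ligand of EphB4 on arterial EC. It had the most DMRs of the members, 20, with 17 losses and 3 gains. In its body (chr8:8617434-8661242, minus strand, 43.8 kb) all 14 DMRs were losses. They held 61 of its 721 CpGs (8.46%), and 85 of the 12,067 genes with at least 200 CpGs in the body (0.704%) had as large a share. Of all genes, 88 (0.336%) had at least 14 losses in the body.

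The median of the 14 body DMRs was 71.02% in infants and 36.2% in young adults. Their differences ran from -45.8 to -18.5 points with a median of -31.7. In 13 of the 14 the infant mean was over 60% and the young adult mean over 20%, so the CpGs remained partly methylated in the young adult average. The exception was the DMR at chr8:8640798-8640860 in intron 1, which went from 26.1% to 7.55%.

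The losses began 12.61 kb downstream of the start site and spread over 28.19 kb, with a median gap of 1124 bp between neighbors (111 to 7332 bp). Numbered on the curated transcript with 4 exons, 6 lay in intron 1, 5 in intron 2, 2 in intron 3 and 1 in the coding part of the last exon, and the second curated transcript has an additional exon within intron 2. The median difference was -30.2 points in intron 1, -34.8 in intron 2 and -34.9 in intron 3. The medians of the introns thus lay near each other, single losses varied more, and the last exon had a larger loss.

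The largest loss of Efnb2 was in its last exon, from 69.0% to 23.2% (-45.8 points). The largest in an intron was in intron 1, where 6 CpGs went from 61.3% to 21.3% (-39.98 points). The DMR with the most CpGs, 8, lay at chr8:8638423-8638761 in intron 2 and had means of 82.1% and 54.4% (-27.6 points). Nearest to the start site was the DMR at chr8:8648441-8648828, with means of 68.3% and 37.9% (-30.4 points).

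**Figure D3:**
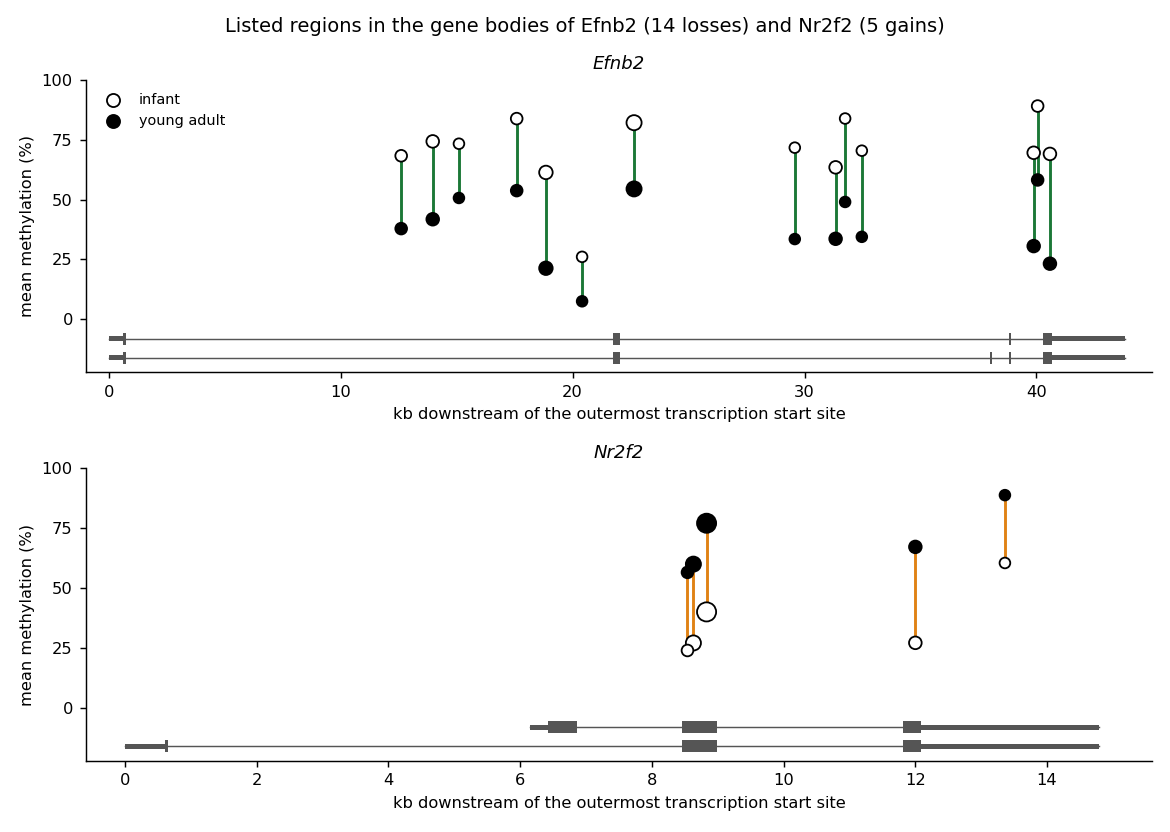
DMRs in the bodies of Efnb2 (top) and Nr2f2 (bottom). The x axis is the distance from the outermost transcription start site in kb and the y axis the group mean in percent. Open circles are infant and filled circles young adult means, larger circles hold more CpGs, and the boxes below are the exons of both curated transcripts, taller where coding. In Efnb2 all 14 means are lower in young adults, mostly in introns, and in Nr2f2 all 5 are higher, all in exons.

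The flanks of Efnb2 held 3 losses and 3 gains. A pair of losses lay upstream in Arglu1, a neighboring gene for an arginine- and glutamate-rich protein. The one at chr8:8681433-8681489, 20.22 kb from Efnb2, had means of 87.3% and 47.2% (-40.1 points). The gains had young adult means of 61.6%, 94.3% and 91.4%, and the largest was that at chr8:8596361-8596392, from 33.8% in infants (27.8 points). Between the Arglu1 DMR and the first body DMR, 554 CpGs around the start site were in no DMR.

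Gja4 and Gja5 encode connexin 37 and connexin 40, gap junction proteins of arterial EC. Gja4 had 2 losses, both 3′ of the gene and in no gene body. The first, 6.58 kb from the start site, had means of 58.5% and 30.6% (-28.0 points). The second, at chr4:127308140-127308181, had means of 71.1% and 45.8% (-25.2 points). Gja5 had one gain, 20 kb upstream at chr3:97012275-97012523, from 73.5% to 83.6%. At 10.03 points it was the smallest difference of the 44 DMRs and close to the authors' minimum of 10%.

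Cxcr4, the receptor for the chemokine CXCL12, had 2 gains and no DMR in its body. One lay 40.3 kb upstream (chr1:128632509-128632685) with means of 37.5% and 66.5% (29.0 points). The other lay 17.12 kb downstream of the start site and 3′ of the gene (chr1:128575127-128575240), with means of 23.5% and 46.0% (22.5 points). Both were of 3 CpGs, the fewest that a DMR can hold.

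Unc5b, a netrin receptor of arterial and sprouting EC, was the member with both directions in one intron. Its body (chr10:60762594-60831581, minus strand) is the longest of the members at 69.0 kb, and 15 of its 1284 CpGs (1.17%) lay in DMRs, all in intron 1. The 3 gains were the DMRs nearest to the start site, at 1.94, 7.26 and 7.52 kb. The first of them (chr10:60829482-60829805) had means of 46.9% and 68.9% (21.9 points), the second (chr10:60824312-60824331) 76.7% and 90.1% (13.4 points), and the last 24.6% and 53.3% (28.7 points).

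The 2 losses lay further into the intron. At 36.64 kb from the start site the mean was 82.7% in infants and 35.3% in young adults (-47.4 points), the largest difference of all 44 DMRs, and 502 of the 8422 listed losses (5.96%) were as large. At 29.54 kb (chr10:60801998-60802091) the means were 43.0% and 20.1% (-22.9 points). Both gains in the flanks of Unc5b were outside its transcript. The one in Slc29a3, a nucleoside transporter gene downstream, had means of 36.9% and 65.8% (28.9 points). The other, 32.95 kb upstream, had means of 70.2% and 86.3% (16.0 points).

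Hey2, a repressor induced by Notch, had no DMR in its window of 1028 CpGs. The nearest listed DMR was 104.68 kb from the gene, in Ncoa7, with means of 81.2% and 93.3%. The choice of 50 kb excluded few DMRs nearby. The most distant inside was the Efnb2 gain at 44.85 kb (74.7% and 91.4%), and the nearest outside was a gain 53.3 kb from Gja5 (63.7% and 83.4%). Between 50 and 100 kb there were 6 DMRs, all gains: 2 at Cxcr4 and 1 each at Ephb4, Gja4, Gja5 and Unc5b. Gains were 54.1% of all listed DMRs and 76.9% of those in no gene body, so nothing is read from this count.

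No DMR lay within 1 kb of any of the 11 curated start sites of the members, where 1184 CpGs lie. Counting the start sites of any gene, 1 of the 44 (2.27%) and 4.19% of all listed DMRs lay so near. The list does not tell whether these CpGs were covered or were of equal methylation in both groups. Within their own bounds the DMRs held 4.55 CpGs per 100 bp in the median, against 2.83 over all listed DMRs. Both sets had a median of 3 CpGs, but the median width was 78.5 bp for the members and 126 bp over all. The density therefore reflects narrower DMRs, and that of the sequence around them was not measured. Of the 44, 11 (25%) had their midpoint in a CpG island of at least 200 bp, and 13.8% of all listed DMRs did. Nr2f2 accounted for 6 of the 11, all gains, and Efnb2 for 3, with 2 losses in the body. Stricter islands had at least 500 bp, at least 55% GC and an observed to expected CpG ratio over 0.65. With them the numbers were 4 (9.09%) and 2.91%, 3 of the 4 in Nr2f2 and 1 in the last exon of Efnb2. Most DMRs were short, with 3 CpGs in 29 of 44 (65.9%), as in 66.5% of all listed DMRs.

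**Figure D4:**
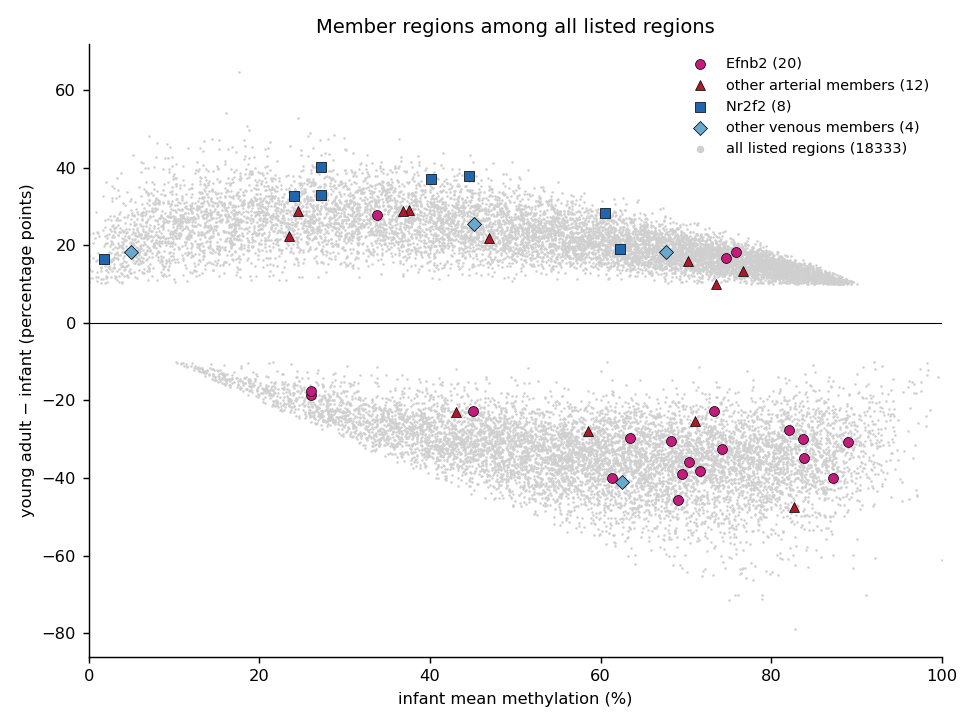
Infant group mean in percent on the x axis and the young adult minus infant difference in percentage points on the y axis. Grey points are all 18,333 listed DMRs and symbols are the 44 DMRs of the members. The empty band around 0 is the authors' minimum difference of 10%, and the upper and lower bounds of the cloud follow from methylation lying between 0 and 100%. Of the 8 Nr2f2 gains, 6 are above 26.1 points, the upper quartile of all listed gains, and Efnb2 losses lie within the main cloud of losses.

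Motifs of factors that act in arterial and venous programs were counted in 200 bp windows centered on the DMRs, on both strands. AGGTCA, a site bound by NR2F receptors, was in 7 of 44 windows (15.9%; 13.1% of all listed DMRs). TGGGAA, the core of the Notch effector RBPJ, was in 9 (20.5%; 19.0%), and ACAAAG, a SOX core, in 6 (13.6%; 17.2%). CCGGAA, an ETS core, was in 4 (9.09%; 4.16%), and CACGTG, an E-box of HEY and other factors, was in none (4.19%). TGGGAA and CCGGAA share their last 4 letters, and the other words do not contain one another. A match in so short a word is no sign of binding, and its absence says nothing of the factor.

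Genes with related roles were placed beside the members. Of 15 other arterial genes, 12 had a DMR, 6 with a loss and 10 with a gain, with 49 loss and 30 gain DMRs. Over all genes, 49.7% had a DMR in such a window, 24% a loss and 38.1% a gain, which holds for each list below. Acvrl1, a BMP receptor of EC, had 22 losses and no gain in its window, the most of the list, 5 of them in its body. Nrp1, a co-receptor for VEGF and semaphorins, had 11 losses, all in its body. Dll4, the arterial Notch ligand, had 5 losses in its body and 6 gains outside. Of 16 other venous genes, 12 had a DMR, 4 with a loss and 10 with a gain, with 15 loss and 29 gain DMRs. Aplnr, the apelin receptor, had 10 gains and Nrp2, a neuropilin of venous and lymphatic EC, had 9, with no loss at either. Amigo2, an adhesion protein, had 8 losses, all outside its body. Direction was thus mixed on both sides. The excess of losses in the arterial list rested on Acvrl1, without which it had 27 losses and 30 gains. In the venous list gains outnumbered losses whichever gene was left out, from 15 losses and 19 gains without Aplnr to 7 and 29 without Amigo2.

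**Figure D5:**
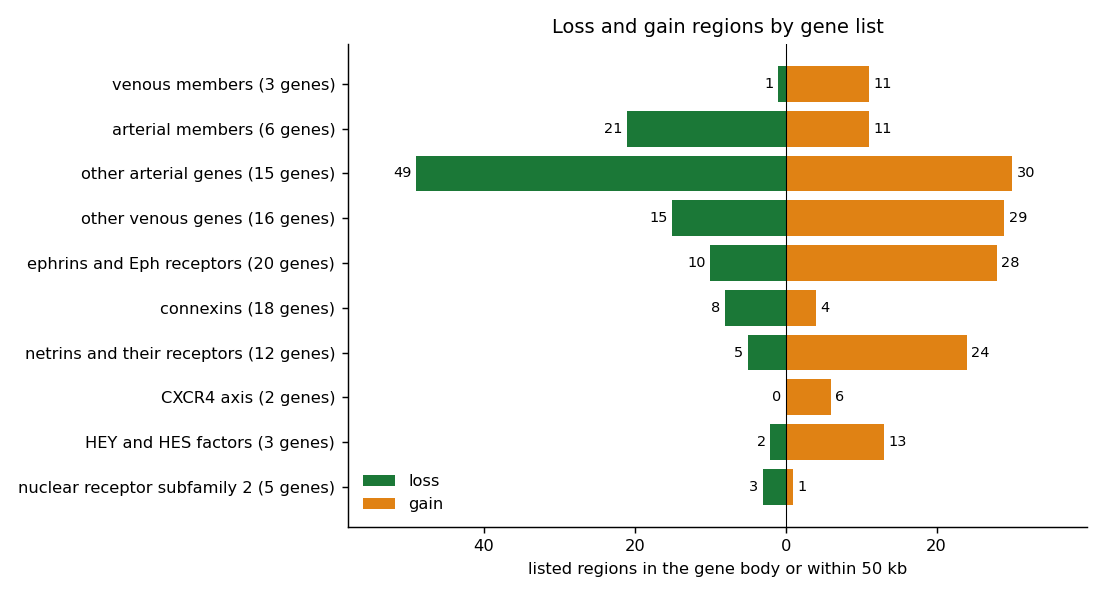
Number of listed DMRs in the gene body or within 50 kb for each list of genes, with losses to the left and gains to the right of 0. A DMR near several genes of a list is counted once in it. Venous members have 1 loss and 11 gains, arterial members 21 and 11, and the other lists of arterial and venous genes 49 and 30, and 15 and 29.

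The partners of the members were described in the same way. Of 20 other ephrins and Eph receptors, 14 had a DMR, 5 with a loss and 13 with a gain (10 loss and 28 gain DMRs), beside 49.7%, 24% and 38.1% of all genes. Epha2 had 4 losses and 6 gains, Epha4 3 and 3, and Efna5 4 gains. None of these 20 genes had as many body losses as Efnb2. Of 18 other connexins, 9 had a DMR, near the 49.7% of all genes, with 8 losses and 4 gains in all. Gjd3 had 4 losses, and 2 of the 8 losses were those already counted at Gja4.

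The next list held 12 genes, which were netrins, netrin receptors and Robo4, a roundabout receptor with 3 gains. Of the 12, 9 had a DMR, all 9 with a gain and 2 also with a loss (5 loss and 24 gain DMRs). Over all genes, 49.7% had a DMR, 38.1% a gain and 24% a loss. Ntn4, a vascular basement membrane netrin, had 4 losses and 2 gains, Ntn5 1 and 3, and Dcc, the classical netrin receptor, 4 gains. Of the 2 genes of the CXCR4 axis, Ackr3, the scavenger receptor for CXCL12, had 6 gains, and Cxcl12 itself had no DMR. The 3 HEY and HES factors, targets of Notch, all had gains, as did 38.1% of all genes. Hes1 had 6, Heyl 2, and Hey1, which is also in the arterial list, 5 with 2 losses. Of 5 other receptors of nuclear receptor subfamily 2, 3 had a DMR, with 3 losses and 1 gain in all. Nr2c2 had 2 losses, Nr2f6 1, and Nr2e1 the gain.

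Genes that mark other cells of the lung were listed to see whether they too carried DMRs, as 49.7% of all genes do. None of 5 leukocyte genes, including Ptprc and Cd68, had one. Of 3 lymphatic EC genes, Lyve1 had 3 losses and 1 gain, and Prox1 and Pdpn had none. Of 3 epithelial genes, 2 had a DMR, with 1 loss and 4 gains in all. Of 2 fibroblast genes, 1 had a gain. Of 4 smooth muscle or pericyte genes, 3 had a DMR, with 1 loss and 4 gains. All 4 endothelial genes had DMRs, 48 losses and 5 gains. Erg had 15 losses and 4 gains, Pecam1 17 losses, Cdh5 15 losses and 1 gain, and Cd34 1 loss. Pecam1 and Cd34 encode CD31 and CD34, the proteins of the sort. The part of the cell makeup of the sorted samples in the methylation of the members was not tested.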

How the data were processed

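The T-WGBS libraries (3 per sample, 30 ng DNA) were trimmed with SeqPrep, aligned to mm10 converted in silico, and freed of duplicates with Picard. The submitters' processing notes name bcl2fastq 1.8.4, BWA 0.6.1 and R 3.2.2. Methylation was called from bases of quality 20 or more, without 9 bp at tagmented ends, and DMRs with bsseq, unsmoothed, on CpGs with 8-fold coverage in at least 2 of 3 samples per group. The deposited values are fractions of methylated calls, averaged by the authors per DMR and group, with all 3 samples pooled. Depth per DMR is unknown.

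Fractions were multiplied to percent. The file counts from 0 and gives the C of the first and last CpG; after conversion, 18,333 of 18,333 DMRs began and ended at a CpG. The gain or loss named in the file fitted the means in each. Gene bodies and exons came from 45,756 curated RefSeq transcripts of GRCm38.p6, and sequences from its genome. CpG islands were windows of at least 200 bp with at least 50% GC and an observed to expected CpG ratio over 0.6. Stricter islands had at least 500 bp, at least 55% GC and a ratio over 0.65. A DMR was counted in an island if any part of it overlapped one. Counting was tested on simulated data. Python 3.11.15, pandas 2.3.3, numpy 2.4.6, scipy 1.17.1 and matplotlib 3.10.9 were used.

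The members and lists were chosen with earlier results of these data known. Members with 5 or fewer DMRs are described in full; for others, those with the largest loss and gain, the most CpGs and the shortest distance to the start site, and from each list up to 3 genes with the most DMRs. Additional DMRs and genes were named, and the sequences of Nr2f2 exon 3, the last exon of Efnb2, Ephb4 exon 12 and the Unc5b gain chosen, after their values were seen. The tests over samples that had been planned were not run, since the files used here hold group means only. Some genes of the lists are not reported here by name.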

Additional observations from a re-analysis of the deposited data

How the results depend on the processing

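Of 58 alternatives, 44 left a value within its limit. Not all of the 44 could have moved: the 25 DMRs in the bodies of members do not depend on the distance. The limit was 1.5 times for a count and for the share of genes with a DMR. For other shares and medians it was the interval over the DMRs of the set. That interval takes DMRs as independent, which those of one gene are not. A share or median within it is therefore not shown to be stable. With a distance of 10 kb, 28 DMRs remained, 67.9% of them losses, and 26.5% of all genes had a DMR. With at least 5 CpGs per DMR, 9 remained, all in the bodies of members, with 66.7% losses, 5 in islands and a median gain of 37.0 points. The stricter islands, with at least 500 bp, at least 55% GC and a ratio over 0.65, overlapped 4 DMRs. Without Efnb2, an alternative added after the data had been seen, losses were 20.8% of the rest. Without Acvrl1, also added then, losses in the list of other arterial genes were 47.4% in place of 62.0%, and those of the venous list were 44.1% without Aplnr and 19.4% without Amigo2 in place of 34.1%. Windows of 400 bp raised the share with AGGTCA to 34.1% (24.7% of all listed DMRs) and that with ACAAAG to 27.3% (31.6%). The share with CCGGAA rose to 15.9% (7.41%), with TGGGAA to 34.1% (34.8%) and with CACGTG to 2.27% (7.42%). With a difference of at least 20%, 33 DMRs remained, a count within its limit, and the share of losses moved from 50% to 60.6%. A distance of 100 kb, any overlap in place of the midpoint, merging of DMRs within 500 bp, leaving out DMRs in other genes and, added later, predicted gene records changed no count by over 1.5 times; at 100 kb, 65.7% of all genes had a DMR. Without Nr2f2, also added later, the median gain was 20.1 points. No paired analysis was possible because the file used here holds group means only, and for the same reason no replicate could be left out. The depth behind a DMR is unknown, so no interval can be given for a group mean.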

Other observations

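The protein-coding genes whose counts of loss and gain DMRs in the body and in the 50 kb flanks were most like those of Efnb2 were sought among 20,998 genes at least 200 kb away or on another chromosome. Sema7a, a membrane-anchored semaphorin, was nearest, with 13 losses and no gain in its body and 3 losses and 3 gains in its flanks, a summed difference of 1 from Efnb2. Ppp2r5a, a regulatory subunit of protein phosphatase 2A, had 14 body losses, and 3 losses and 1 gain in its flanks. Slco2a1, a prostaglandin transporter, had 14 body losses, and 2 losses and 2 gains in its flanks. These are matches of counts in one list of DMRs and say nothing of shared control.

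Mecom, a zinc finger factor in the arterial list, had 8 gains and 1 loss, all in its body, and Notch1 had 6 losses in its body. In the venous list, none of 16 genes had a loss in its body and 4 had a gain there, beside 8.46% and 11.4% of all genes. Mecom and Notch1 were named after their values were seen.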
